A study of Homo sapiens with 6 samples.

Results

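The subunit genes of the phagocyte NADPH oxidase, CYBA, CYBB, NCF1, NCF4 and RAC2, were followed in MOLM-13 cells, a line from human acute monocytic leukaemia, after exposure to UC-764864. The 5 members were taken by gene symbol from the 56638 rows of the deposited count table, and all 5 were found. The treated group consisted of 3 libraries from cells given UC-764864 at 2 µM, which the series title calls an inhibitor of the ubiquitin-conjugating enzyme UBE2N. The controls were 3 libraries from cells given the solvent DMSO, and all cells were collected after 24 h. All cells were of 1 line grown in the same medium. The labels leave unsaid whether the 3 libraries per treatment were grown apart, so p-values reflect library-to-library spread alone, and that spread may be technical. The question was how transcripts of the oxidase, its partners and the genes around it differed between the treatments.

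The phagocyte NADPH oxidase passes electrons from NADPH across a membrane to oxygen and makes superoxide, which phagocytes use against microbes. Its catalytic chain, encoded by CYBB, and its stabilising partner, encoded by CYBA, sit in the membrane as a heterodimer. In resting cells the organiser NCF1 and the phosphoinositide-binding subunit NCF4 wait in the cytosol, and the small GTPase RAC2 joins them when the cell is activated. Loss of CYBB, CYBA, NCF1 or NCF4 causes forms of chronic granulomatous disease in humans.

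NCF1 has copies, NCF1B and NCF1C, that are pseudogenes by the RefSeq annotation and lie on the same chromosome, 7. The NCF1 messenger RNA (main GENCODE 29 transcript, 1396 bases, build GRCh38) aligned to that of NCF1C over 1394 bases with 8 mismatches and 1 gap of 2 bases, and to that of NCF1B over 596 bases with 4 mismatches and 1 gap of 2 bases. Of the 1322 stretches of 75 bases in it, 75 bases being the read length, 75.6% occurred unchanged in a transcript of a copy. None of the stretches of the main transcripts of CYBA, CYBB, NCF4 and RAC2 occurred in a transcript of another gene. The window around the gap is shown because it holds a known difference between gene and copies, with the 2 bases that the alignment leaves out of both copies in capitals.
NCF1: cccagccagcactaTGtgtacatgttcctg
NCF1B: cccagccagcactatgtacatgttcctg
NCF1C: cccagccagcactatgtacatgttcctg

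Promoters of CYBB and NCF1, whose values were lower after UC-764864 as given below, were found in the RefSeq table (GRCh38.p14, 250 bases before to 50 after the start), as was that of CYBA, so 3 of 5 members matched. Capitals mark the letters GAGGAA or their reverse complement, a core that the myeloid factor PU.1 is known to bind, searched on both strands. CYBB lies at chrX:37779809-37780108 on the plus strand and NCF1 at chr7:74773761-74774060 on the plus strand.
CYBB: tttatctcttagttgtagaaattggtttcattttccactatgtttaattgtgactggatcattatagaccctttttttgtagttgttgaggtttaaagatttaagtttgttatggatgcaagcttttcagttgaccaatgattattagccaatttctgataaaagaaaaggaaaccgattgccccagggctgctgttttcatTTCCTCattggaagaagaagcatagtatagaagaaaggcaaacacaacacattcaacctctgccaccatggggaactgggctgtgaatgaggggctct
NCF1: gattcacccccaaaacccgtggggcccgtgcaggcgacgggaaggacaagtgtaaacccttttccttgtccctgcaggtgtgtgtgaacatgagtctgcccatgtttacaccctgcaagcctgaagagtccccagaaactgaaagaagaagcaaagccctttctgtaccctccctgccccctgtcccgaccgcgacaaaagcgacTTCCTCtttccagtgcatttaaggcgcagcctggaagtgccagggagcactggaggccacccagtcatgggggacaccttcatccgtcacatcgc

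The match began 48 bases before the start of CYBB and 45 bases before that of NCF1, 1 in each window. The same letters occurred in 27.9% of the 35116 promoters of the table. The CYBA window held 0. The letters CCAAT, a box described in the CYBB promoter, occurred 4 times in the CYBB window and 0 times in those of NCF1 and CYBA, on either strand, against at least once in 34.6% of all promoters. These matches describe the letters and show no binding.

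Libraries held 17073654 to 25014437 counts after UC-764864 and 16136156 to 24511499 after DMSO. The column of DMSO library UDI0055 stands at 0 in 3799 rows, which include the X-linked genes, and these zeros were read as missing values, so CYBB, on X, was compared in 5 libraries and the other members in 6. Levels are counts scaled to library size and TMM factor (CPM), and the 5-library values use all rows of the table. UC-764864 library UDI0052 and DMSO library UDI0056 had the smallest shares of counts in the most GC-rich genes (top 25%), 17.8% and 17.5%, against 20.7% to 23.0% in the others. Of 9 myeloid markers all had counts, but CD14 and CD68 stood at 0.394 and 0.527 CPM with UC-764864 and at 0.304 and 0.367 CPM with DMSO, close to the level of 3 counts (0.123 to 0.198 CPM). Taken list by list, T cell, B cell, erythroid and megakaryocyte markers each summed to at most 1.21 CPM with UC-764864 and at most 1.32 CPM with DMSO. CD2, MS4A1, PPBP and PF4 were at 0 in every library. Epithelial and stromal markers summed to 2.84 to 3.51 CPM with UC-764864 and 4.50 to 6.06 CPM with DMSO.

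CYBB, the catalytic chain, fell after UC-764864. It had 13.6, 16.7 and 14.6 CPM in UC-764864 libraries UDI0051, UDI0052 and UDI0053, against 18.8 and 23.0 CPM in DMSO libraries UDI0054 and UDI0056. Every treated library lay below both DMSO libraries. Groups were apart for 36.1% of the 13490 genes tested in 6 libraries, and the share in these 5 libraries is not given here. The means were 14.95 ± 1.56 CPM after UC-764864 (SD, n = 3) and 20.9 ± 3.00 CPM with DMSO (SD, n = 2), from 279 to 334 counts per treated library and 377 and 460 counts per DMSO library. The log2 fold change was −0.48 ± 0.15 (SE; edgeR quasi-likelihood test, Benjamini-Hochberg adjusted p = 0.0378), a 1.40-fold fall. In that fit 13.9% of 14186 genes were called lower and 9.88% higher. The call was lost without UDI0051, without UDI0053 and without UDI0056 (adjusted p = 0.159, 0.125 and 0.246), with log2 fold changes of −0.42, −0.46 and −0.34. In cultures measured in bulk, fewer cells with a transcript and less of it per cell cannot be told apart.

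CYBA, whose product stabilises the CYBB chain, did not pass. It had 338, 224 and 342 CPM in UC-764864 libraries UDI0051, UDI0052 and UDI0053, against 309, 380 and 258 CPM in DMSO libraries UDI0054, UDI0055 and UDI0056. The groups overlapped throughout, and within each group the lowest value was that of the library poor in GC-rich genes, UDI0052 or UDI0056. The CYBA transcript has the highest GC content of the 5, 69.9%, and CYBB the lowest, 40.9%. With each library's GC trend removed, the log2 fold change was −0.026 for CYBA (adjusted p = 0.825) and −0.39 for CYBB (adjusted p = 0.00417), so CYBB stayed called and CYBA did not pass. The log2 fold change was −0.07 ± 0.18 (95% interval −0.46 to 0.32; adjusted p = 0.822). Its sign changed without UDI0052, to 0.079, and without UDI0055, to 0.087.

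NCF1, the organiser that carries the cytosolic subunits to the membrane, was lower in every treated library but missed the threshold. It had 42.2, 37.3 and 50.4 CPM in UC-764864 libraries UDI0051, UDI0052 and UDI0053, against 62.7, 54.6 and 52.5 CPM in DMSO libraries UDI0054, UDI0055 and UDI0056. The highest treated value, 50.4 CPM, lay just under the lowest DMSO value. The log2 fold change was −0.39 ± 0.14 (95% interval −0.69 to −0.09; unadjusted p = 0.0163, adjusted p = 0.0816). Groups did not overlap for 36.1% of all 13490 genes tested, so the lack of overlap is common in these libraries. NCF1 passed in the 5-library fit on all rows that also gave CYBB its value (−0.44, adjusted p = 0.0479), without UDI0056 (−0.43, adjusted p = 0.0476), with DESeq2 (−0.40, adjusted p = 0.0445) and with each library's GC trend removed (−0.47, adjusted p = 0.00323). The fit with the GC trend removed called 1828 genes higher and 1915 lower of 11647. NCF1 did not pass with RLE factors (adjusted p = 0.0660), library size only (0.0565), no filter (0.0513) or rows as deposited (0.118). Nor did it pass without UDI0052 and UDI0056 together (0.0622). On the rows held by all libraries, it failed without UDI0051, UDI0052, UDI0053, UDI0054 or UDI0055 (0.269, 0.170, 0.0854, 0.268 and 0.0675). Over all alternatives run, its adjusted p lay between 0.00323 and 0.269, the highest without UDI0051.

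The copies of NCF1 fell. NCF1B had 15.5, 12.8 and 20.9 CPM in UC-764864 libraries UDI0051, UDI0052 and UDI0053, against 28.1, 27.0 and 26.4 CPM in DMSO libraries UDI0054, UDI0055 and UDI0056 (log2 fold change −0.73 ± 0.17, adjusted p = 0.019). NCF1C had 14.4, 14.4 and 18.1 CPM in the same treated libraries, against 26.1, 22.9 and 22.9 CPM in the DMSO libraries (−0.62 ± 0.14, adjusted p = 0.0179). Neither copy overlapped between groups, but nor did 36.1% of all 13490 genes tested, so this is common in these libraries. Both calls were lost without UDI0051 (adjusted p = 0.0842 for NCF1B and 0.107 for NCF1C) and without UDI0054 (adjusted p = 0.0747 and 0.0821). How the authors' counting divided reads among the 3 genes is not given in the sources used here, so single values of NCF1, NCF1B and NCF1C are uncertain.

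Summed before the fit, NCF1 and its copies had 72.2, 64.5 and 89.4 CPM in UC-764864 libraries UDI0051, UDI0052 and UDI0053, against 117, 104 and 102 CPM in DMSO libraries UDI0054, UDI0055 and UDI0056. For the sum the log2 fold change was −0.52 (adjusted p = 0.031). NCF1 took 58.5%, 57.9% and 56.4% of the summed counts in the treated libraries, against 53.6%, 52.2% and 51.6% in the DMSO libraries. The share was thus higher in every treated library, by 5.10 percentage points on average. A two-sided exact permutation test gave p = 0.1, the smallest that 3 against 3 libraries allow, for this share and for each of 2 log2 ratios of subunits given below, and 0.1 after adjustment over the 3.

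**Figure D1:**
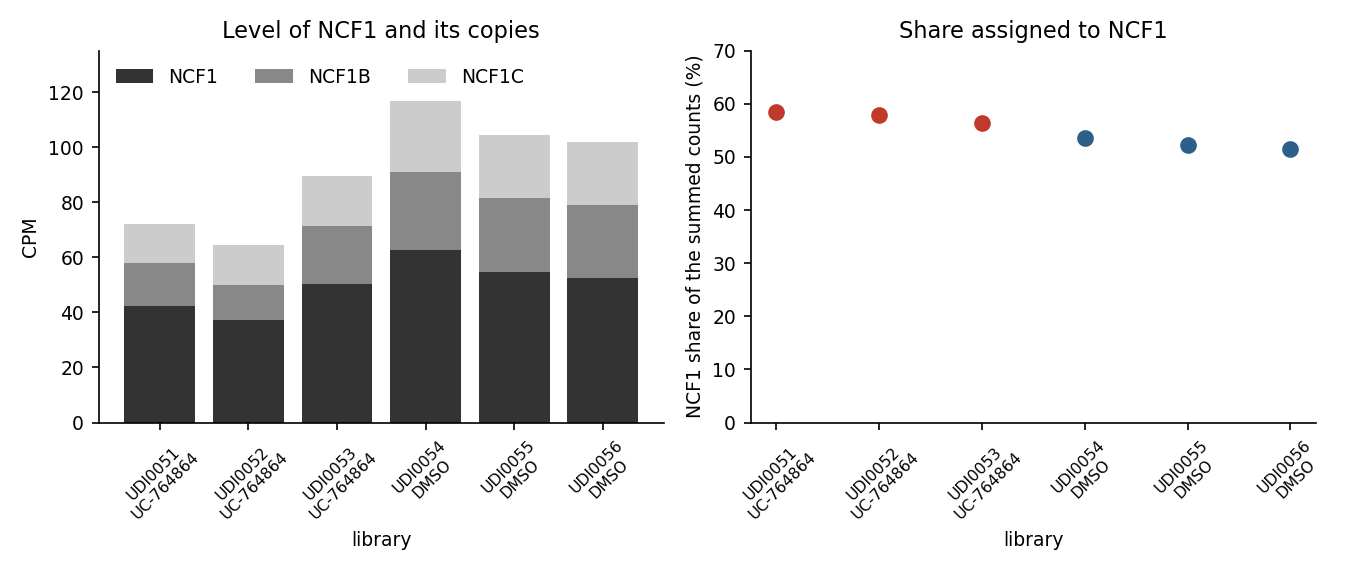
CPM of NCF1, NCF1B and NCF1C stacked for each library (left), and the share of their summed counts assigned to NCF1 in percent (right; red, UC-764864; blue, DMSO). The summed level was 64.5 to 89.4 CPM with UC-764864 and 102 to 117 CPM with DMSO, and the NCF1 share was higher in every treated library.

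NCF4, which binds the membrane lipid PI3P and holds the complex at phagosomes, did not pass. It had 181, 163 and 171 CPM in UC-764864 libraries UDI0051, UDI0052 and UDI0053, against 169, 157 and 146 CPM in DMSO libraries UDI0054, UDI0055 and UDI0056. The treated values reached higher, and the groups overlapped. The log2 fold change was 0.13 ± 0.11 (95% interval −0.11 to 0.37; adjusted p = 0.457), the narrowest interval among the members. An antisense gene, NCF4-AS1, lies on the other strand at this locus in GENCODE 29, and without strand its reads cannot be told apart from those of NCF4. The log2 ratio of NCF4 to NCF1 counts averaged 2.00 ± 0.20 after UC-764864 and 1.48 ± 0.05 after DMSO (SD, n = 3 each) without overlap, with the exact p of 0.1 given above. NCF1 alone was already without overlap, as were 36.1% of all genes tested, so this ratio is not a result separate from that of NCF1.

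RAC2, the haematopoietic Rac GTPase of the oxidase, did not pass either. It had 196, 146 and 201 CPM in UC-764864 libraries UDI0051, UDI0052 and UDI0053, against 171, 196 and 139 CPM in DMSO libraries UDI0054, UDI0055 and UDI0056. Its lowest values, as those of CYBA, were in UDI0052 and UDI0056. The log2 fold change was 0.10 ± 0.16 (95% interval −0.24 to 0.44; adjusted p = 0.686), and it became −0.016 without UDI0056. The log2 ratio of RAC2 to NCF1 counts averaged 2.06 ± 0.14 after UC-764864 and 1.57 ± 0.24 after DMSO (SD, n = 3 each), again without overlap. This ratio too has NCF1 as its denominator and is not separate from the NCF1 result.

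**Figure D2:**
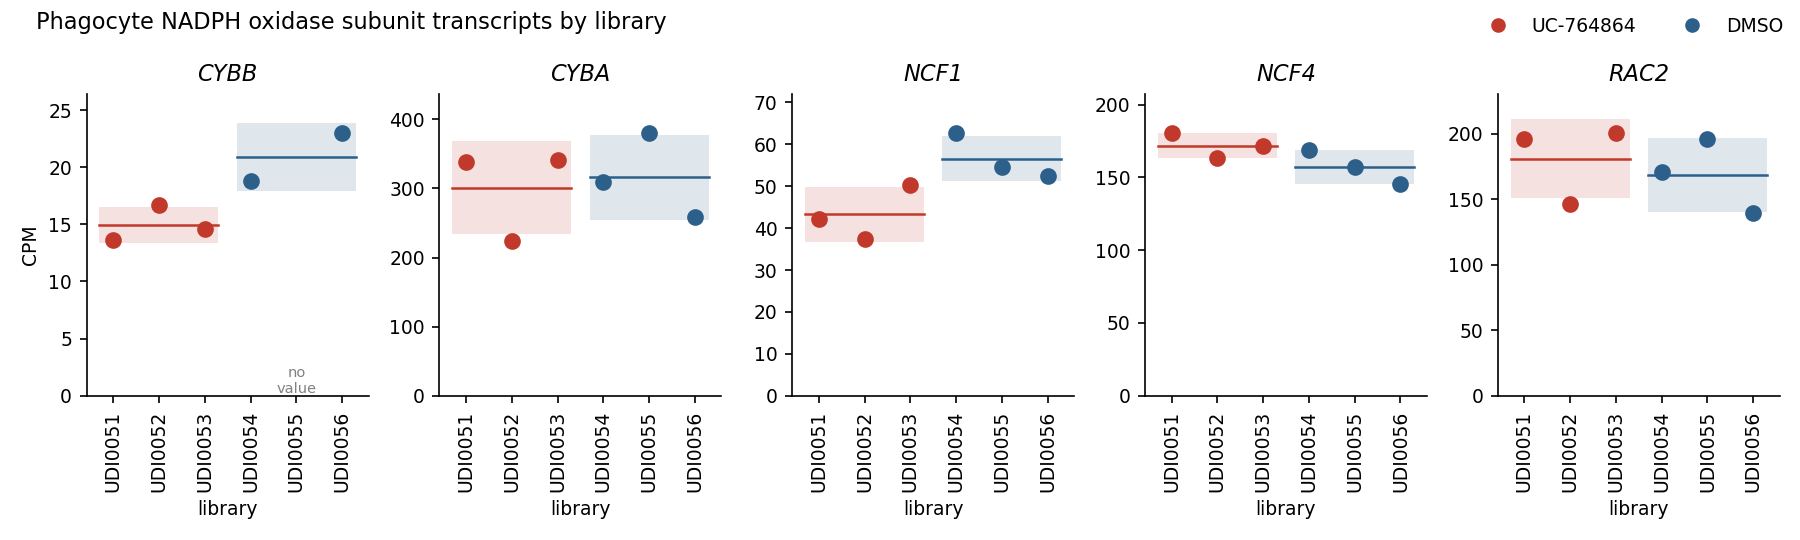
CPM of each oxidase subunit gene in each library (points; red, UC-764864; blue, DMSO), with the group mean (line) and 1 SD on either side (band); CYBB has no value in UDI0055, and its CPM come from the 5-library fit. Groups are apart for CYBB and NCF1 and overlap for CYBA, NCF4 and RAC2. Of all genes tested in 6 libraries, 36.1% had groups apart. That share does not apply to CYBB, compared in 5 libraries, for which the share is not given here.

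Of the 4 members tested in 6 libraries 0 were called in edgeR. Over all 13490 genes of that edgeR fit, 5.11% were called higher and 8.13% lower. DESeq2 called 1 of the 4 (NCF1), where it called 899 genes higher and 1304 lower. The number of genes it tested is not given here, so this 1 of 4 has no background share beside it. With CYBB, called in 5 libraries, 1 of 5 members passed, a count that mixes 2 fits. In the 5-library edgeR fit itself both CYBB and NCF1 were called lower (adjusted p = 0.0378 and 0.0479), as were 13.9% of its 14186 genes.

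Per kilobase of transcript, most members differed far more from each other than between treatments. In the 5 libraries that hold all members, CYBA averaged 343 ± 72.3 CPM per kb after UC-764864 (SD, n = 3) and 329 CPM per kb after DMSO (n = 2), the highest level. RAC2 followed with 111 ± 17.1 CPM per kb after UC-764864 and 96.7 CPM per kb after DMSO. NCF4 had 95.1 ± 4.05 CPM per kb after UC-764864 and 88.6 CPM per kb after DMSO. RAC2 and NCF4 ranged over 87.0 to 122 and 82.1 to 99.7 CPM per kb across libraries and did not separate. NCF1 averaged 28.2 ± 3.90 CPM per kb after UC-764864 and 38.1 CPM per kb after DMSO, and CYBB, the lowest, 3.46 ± 0.36 CPM per kb after UC-764864 and 4.83 CPM per kb after DMSO. CYBA, whose product pairs with that of CYBB in the membrane, thus stood 67.3 to 122 times above CYBB per kilobase in the UC-764864 libraries and 56.4 and 82.6 times above it in the DMSO libraries. Within each group the lowest ratio was that of the library poor in GC-rich genes, UDI0052 or UDI0056. Levels per kilobase were not corrected for GC content, and its part in these ratios was not tested. The NCF1 level leaves out reads counted to its copies.

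Across libraries, the profile of CYBB was closest to those of ARHGAP18 and MON2, measured as the root mean square difference of centred log2 CPM (0.01 for each, over 5 libraries and 10118 genes of at least 5 CPM). Over 6 libraries and 9877 genes, the nearest profiles were ARHGAP9 (0.02) and FERMT3 (0.04) to NCF1, FBXW5 (0.02) and GALK1 (0.03) to CYBA, UROD (0.02) to NCF4, and SLC12A9 (0.01) and TRIP6 (0.02) to RAC2. With so few libraries many genes share a profile, and the likeness describes these libraries only.

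Of the small GTPases and other partner genes of the oxidase, RAC1, RAC3, CDC42 and C17orf62 were not called, with log2 fold changes of −0.04 to 0.17 against a median of 0.01 over all genes. RAC1, the ubiquitous relative of RAC2, had 132 ± 7.38 CPM with UC-764864 and 117 ± 11.6 CPM with DMSO (SD, n = 3 each; 0.17 ± 0.12, adjusted p = 0.328). Of 10 genes for other NADPH oxidases and their own cofactors, 1 passed the filter on low counts, NOXA1, an activator of another NADPH oxidase, at 2.39 ± 0.90 CPM with UC-764864 and 4.54 ± 0.73 CPM with DMSO (−0.90 ± 0.26, adjusted p = 0.0412). It was lost without UDI0051, UDI0052, UDI0053 or UDI0054 (adjusted p = 0.0691, 0.0691, 0.0703 and 0.154).

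**Figure D3:**
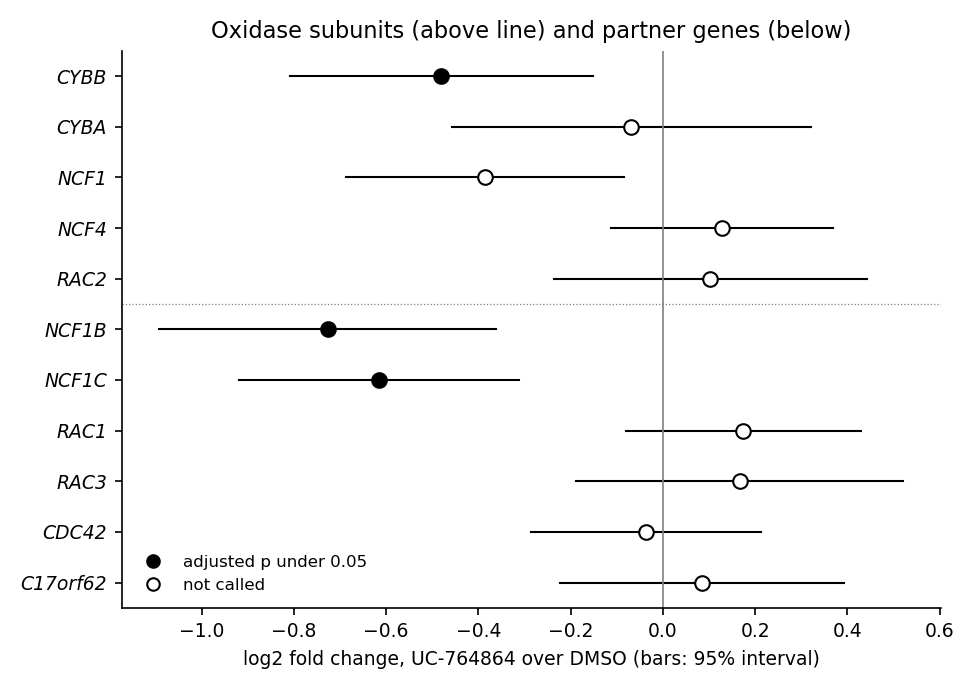
Log2 fold change of UC-764864 over DMSO with its 95% interval for the 5 oxidase subunits (above the dotted line) and for partner genes (below it); filled points had an adjusted p under 0.05. CYBB, NCF1B and NCF1C were lower, and the intervals of CYBA, NCF4, RAC2, RAC1, RAC3, CDC42 and C17orf62 include 0.

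In the Rac cycle list, which holds exchange factors, GTPase activators and dissociation inhibitors of Rac, 1 of 16 tested genes rose and 0 fell, with a median of 0.18. ARHGDIB, the dissociation inhibitor of blood cells that keeps Rac in the cytosol, had 807 ± 29.8 CPM with UC-764864 and 578 ± 46.1 CPM with DMSO (SD, n = 3 each; 0.48 ± 0.11, adjusted p = 0.0161). Leaving out UDI0051, UDI0053 or UDI0054 ended its call (adjusted p = 0.0979, 0.0507 and 0.0757). VAV2, a Rac exchange factor, stood at 0.37 ± 0.12 (adjusted p = 0.065). Of 22 tested genes of assembly signalling, kinases and cofactors that act on the oxidase, 1 rose and 0 fell, with a median of 0.17. PRKCB, a protein kinase C known to phosphorylate NCF1, had 130 ± 3.46 CPM with UC-764864 and 94.8 ± 3.34 CPM with DMSO (0.46 ± 0.10, adjusted p = 0.0188), a call lost without UDI0051, UDI0052, UDI0053 or UDI0054 (adjusted p = 0.0982, 0.0569, 0.0734 and 0.0892). SYK, a kinase below phagocytic receptors, stood at 0.38 ± 0.12 (adjusted p = 0.0539). The share called in both lists was close to the 5.11% of all genes.

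Transcription factors described at promoters of oxidase genes fell in 3 of 16 cases and rose in 0, with a median of −0.07, where 8.13% of all genes tested were called lower and 5.11% higher. HOXA9, a homeobox factor of myeloid progenitors, had 64.2 ± 7.20 CPM with UC-764864 and 107 ± 7.82 CPM with DMSO (SD, n = 3 each; −0.73 ± 0.12, adjusted p = 0.00647), and it stayed called whichever library was left out. CEBPB and CEBPD, leucine zipper factors of myeloid cells, stood at −0.67 ± 0.14 and −0.72 ± 0.20 (adjusted p = 0.015 and 0.0366). CEBPB was lost without UDI0051 or UDI0053 (adjusted p = 0.0775 and 0.0552), and CEBPD without UDI0051, UDI0052, UDI0054 or UDI0055 (adjusted p = 0.109, 0.0677, 0.0572 and 0.0588). CEBPA, a related factor, had 6.99 ± 3.84 CPM with UC-764864 and 15.7 ± 7.23 CPM with DMSO and did not pass (adjusted p = 0.0646). SPI1, which encodes PU.1 and was chosen after its values were seen, had 207 ± 36.8 CPM with UC-764864 and 171 ± 38.8 CPM with DMSO (0.27 ± 0.17, adjusted p = 0.302).

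**Figure D4:**
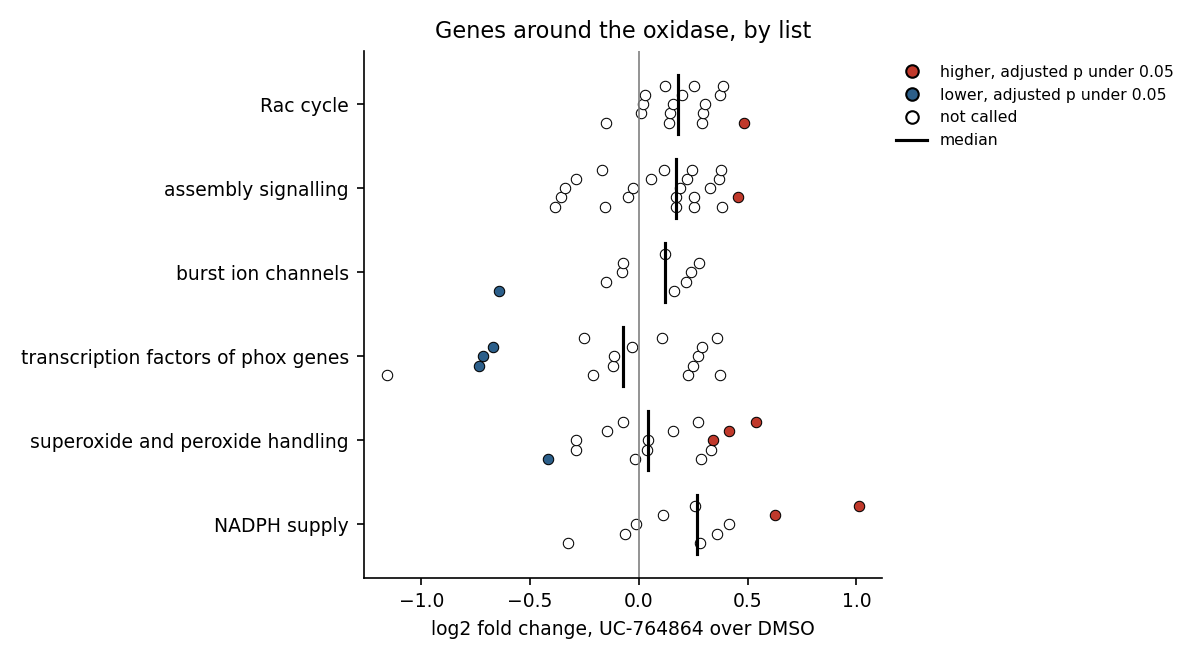
Log2 fold change of UC-764864 over DMSO for each tested gene of the lists around the oxidase, 1 point a gene, with the list median as a bar; red and blue points had an adjusted p under 0.05. Most genes of each list plotted were not called, and the 3 transcription factors called were lower.

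Myeloid markers moved in both directions, 1 of 7 tested higher and 2 lower, against 5.11% and 8.13% of all genes tested. LYZ, which encodes lysozyme, had 5848 ± 503 CPM with UC-764864 and 3170 ± 120 CPM with DMSO (SD, n = 3 each; 0.88 ± 0.10, adjusted p = 0.00141). ITGAM, the integrin chain of the complement receptor on phagocytes, had 15.98 ± 2.82 CPM with UC-764864 and 32.5 ± 1.58 CPM with DMSO (−1.02 ± 0.15, adjusted p = 0.00357), and both stayed called whichever library was left out. CSF1R, the receptor of macrophage colony-stimulating factor, stood at −0.58 ± 0.13 (adjusted p = 0.0179), lost without UDI0051 and without UDI0054 (adjusted p = 0.0869 and 0.0757). CD33, a sialic acid-binding receptor, stood at 0.33 ± 0.10 (adjusted p = 0.0599). The summed level of the 9 markers, most of it LYZ, was 6322 to 7363 CPM with UC-764864 and 4094 to 4348 CPM with DMSO, and its part in the lower CYBB and NCF1 values was not tested.

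**Figure D5:**
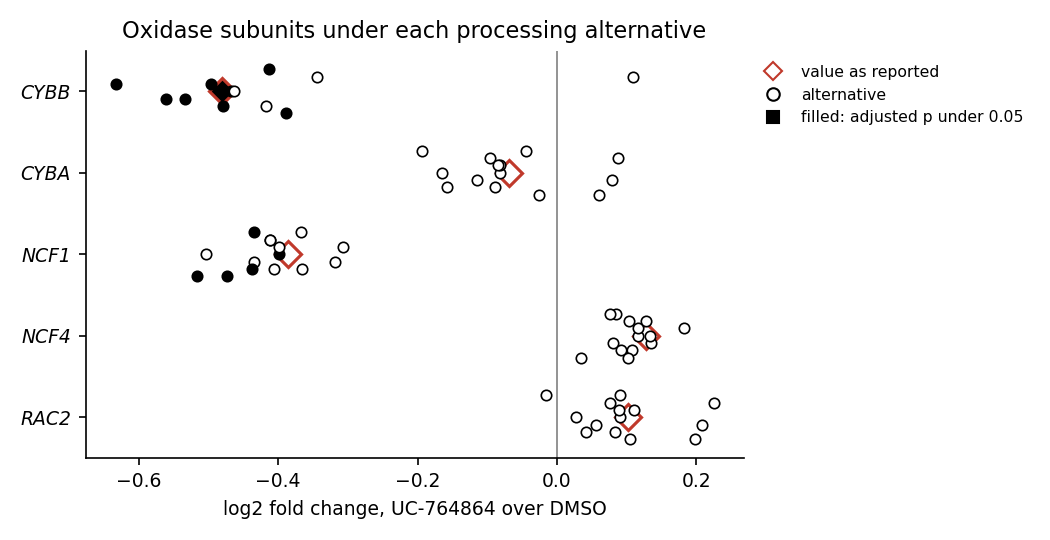
Log2 fold change of UC-764864 over DMSO of each oxidase subunit as reported (red diamond) and under each processing alternative (circles); filled symbols had an adjusted p under 0.05. NCF1 stayed below 0 and NCF4 above 0 under every alternative run, CYBB was above 0 only with the missing values of UDI0055 taken as counts, and CYBA and RAC2 changed sign.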

How the data were processed

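Poly(A) RNA was sequenced in pairs of 75 bp, per the labels' protocols. The deposited values are raw counts per gene, as whole numbers. The submitters' processing notes name GRCh37 and, without roles, featureCounts 1.5.2, HISAT2 2.0.5 and FastQC 0.11.7. No source used here gives the annotation release or the strand setting. Columns were assigned to treatments by a second table that the authors deposited. No pair of libraries agreed within sampling noise (chi-square per degree of freedom 4.40 to 78.8).

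Low genes were removed by filterByExpr, TMM factors set the scaling, and genes were tested in R 4.3.3 with edgeR 4.0.16 (quasi-likelihood F test, treatment as the only term, Benjamini-Hochberg over all tested genes, threshold 0.05), on the 52839 rows held by all 6 libraries. CYBB came from a fit on all rows without UDI0055. SE is the size of the log2 fold change over the square root of F, and intervals (95%) use the fit's t quantile. The fit was also run on counts simulated from its own means and dispersions, with changes larger than those of the members. That run had no libraries poor in GC-rich genes and no missing rows, so it does not bear on either. Alternatives were RLE factors, library size only, DESeq2 1.42.0, no filter, rows as deposited, GC trend removed, summed NCF1 copies and left-out libraries. GC content, lengths and NCF1 alignments are from GENCODE 29 transcripts and promoters from RefSeq, both GRCh38, matched by symbol. Counts carry no molecular identifiers, so a floor of 3 counts covers counting error only.

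Members and gene lists were chosen with earlier results of these data known. Named genes are the members, the NCF1 copies, up to 4 called genes of each list by p, the uncalled gene of smallest p, and for each member the 2 nearest profiles. Some genes that this rule names are not reported here.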

Additional observations from a re-analysis of the deposited data

How the results depend on the processing

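Counts of called genes, 690 higher and 1097 lower, depended on single libraries and on missing values. With the missing rows of UDI0055 taken as counts, 22 were higher and 125 lower; with no filter, 1676 were lower; with the GC trend removed, calls came to 1828 higher and 1915 lower; this used the 11647 genes of known GC content, where the calls as reported came to 641 and 985. Without 1 library each, 62 to 1525 were higher and 278 to 1729 lower. With library size as the only scaling, 508 were higher and 1271 lower. CYBB stood at 0.11 with the missing value taken as a count, by construction of that alternative, and at −0.63 to −0.34 without 1 library each; fits that leave 1 DMSO library assume that it varies like the others. NCF1 stood at −0.40 with DESeq2, −0.47 with the GC trend removed, −0.52 with its copies summed and −0.44 in the 5-library fit on all rows (chosen after seeing the data), each called, and at −0.50 to −0.31 without 1 library each. CYBA stood at 0.060 in that 5-library fit and at −0.19 to 0.087 without 1 library each, and RAC2 at −0.016 to 0.22. Why these values moved was not tested. NCF4 was not called under any alternative. At 279 to 460 counts per library, CYBB has the least depth of the members. No paired analysis was possible because the count columns carry no replicate number.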

Other observations

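Of 15 tested enzymes that use or remove the oxidase's products, 3 rose and 1 fell, with a median log2 fold change of 0.04. Over all genes tested 5.11% were called higher and 8.13% lower, and the share of these enzymes that fell was near that background. EPX, a peroxidase of eosinophil granules, had 98.8 ± 8.31 CPM with UC-764864 and 68.0 ± 6.79 CPM with DMSO (SD, n = 3 each; 0.54 ± 0.12, edgeR adjusted p = 0.018). CAT, which encodes catalase, rose by 0.41 ± 0.10 and PRDX1, a cytosolic peroxiredoxin, by 0.34 ± 0.10 (adjusted p = 0.0228 and 0.0497), and PRDX3, the mitochondrial peroxiredoxin, fell, at a log2 fold change of −0.42 ± 0.11 (adjusted p = 0.0302). SOD1, the cytosolic superoxide dismutase, stood at 0.29 ± 0.11 (adjusted p = 0.0901). Leaving out UDI0051, UDI0053 or UDI0054 ended each of the 4 calls (adjusted p between 0.0766 and 0.176). CAT and PRDX1 were lost also without UDI0052 (adjusted p = 0.0710 and 0.144), PRDX1 without UDI0055 (0.0522) and PRDX3 without UDI0056 (0.0685).

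Of 10 tested enzymes that supply cytosolic NADPH, the oxidase's electron donor, 2 rose and 0 fell, with a median of 0.27, against 5.11% of all genes higher and 8.13% lower. MTHFD1, a folate cycle enzyme, had 255 ± 12.6 CPM with UC-764864 and 165 ± 26.1 CPM with DMSO (0.63 ± 0.13, adjusted p = 0.013), lost without UDI0051 or UDI0054 (adjusted p = 0.0591 and 0.0636). ME1, the cytosolic malic enzyme, had 1.88 ± 0.32 CPM with UC-764864 and 0.93 ± 0.20 CPM with DMSO (1.01 ± 0.27, adjusted p = 0.0321), lost without UDI0051, UDI0052, UDI0053 or UDI0054 (adjusted p = 0.162, 0.0724, 0.0525 and 0.125). PGD stood at 0.36 ± 0.11 (adjusted p = 0.0555). Of 9 channels of the respiratory burst 1 fell and 0 rose, with a median of 0.12, a share lower that was near the 8.13% of all genes. It was KCNN4, a calcium-activated potassium channel, at 29.6 ± 4.79 CPM with UC-764864 and 46.3 ± 4.20 CPM with DMSO (−0.64 ± 0.14, adjusted p = 0.0171), lost without UDI0051 or UDI0054 (adjusted p = 0.0552 and 0.0783). TRPM2, a calcium channel opened by oxidative stress, stood at 0.28 ± 0.15 (adjusted p = 0.224). Among markers of other cell types, 1 of 4 tested was called, the T cell gene CD3D at 0.51 ± 0.05 CPM with UC-764864 and 1.09 ± 0.13 CPM with DMSO (adjusted p = 0.0358), and KRT8, an epithelial keratin, did not pass (adjusted p = 0.0515). The CD3D call was lost without any 1 library other than UDI0055 (adjusted p from 0.0843 to 0.141).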
